A study of Mus musculus with 4 samples.

Results

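Tubulins are the subunits of microtubules, and kinesins are motor proteins that move along microtubules or reshape their ends. The genes described here are the rows of the deposited expression table whose symbol begins with Tuba, Tubb, Tubd, Tube or Tubg and a digit, or with Kif and a digit. They numbered 58 of 23996 rows with a gene, 20 tubulins and 38 kinesins. The rule used symbols only and no measured value.

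Alpha- and beta-tubulin pair into dimers that assemble into microtubules, and mammals encode several isotypes of each that differ mostly in their last residues. Gamma-tubulin starts new microtubules, and delta- and epsilon-tubulin are needed for the triplet microtubules of centrioles. In a hair cell, microtubules fill the cell body, carry cargo to the synapses at its base, and form the kinocilium, a cilium that helps to orient the hair bundle during development. Some kinesins work in mitosis and are made by dividing cells, while others carry organelles and vesicles in cells that have stopped dividing.

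Hair cells were isolated by sorting, out of cochlear epithelium of C57BL/6 mice killed on postnatal day 7, that carried 4 alleles in all groups used here: Sox2-CreER, a tamoxifen-activated Cre made where Sox2 is made (supporting cells), the Cre-dependent transgene CAG-loxP-stop-loxP-Atoh1-HA, the Atoh1-eGFP reporter and the Cre-dependent Rosa26-tdTomato reporter. Tamoxifen was injected on postnatal day 3 at 0.20 mg per g of body weight, and a corn oil control is described without being tied to a library. Original hair cells were positive for eGFP alone, and new hair cells, induced by Atoh1 overexpression, were positive for eGFP and tdTomato. Each group had 2 sequencing libraries, with no statement whether they came from separate animals or pools, so the spread behind the authors' p-values may be technical.

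The deposited table gave 1 FPKM (fragments per kilobase of transcript, scaled to the library's mapped fragments) for a gene in a group. The values below therefore carry no replicate error, depth per library is unknown, and no test across libraries could be run. Summed over all rows, FPKM came to 2165833 in original hair cells and was 8.87-fold lower in new ones, at 244225, so a gene less than 8.87-fold lower in new hair cells takes a larger share of its sum there. Levels below are FPKM as deposited. Directions were also read under 3 other scalings of the groups, by a trimmed mean, by quantiles and to equal sums. The median log2 difference of all tested genes was -0.21 as deposited, 0.05 with trimmed-mean scaling, 0.28 after quantile normalization and 2.53 with equal sums.

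The labelled cell types were set against marker lists. All 8 hair cell markers were tested, and their summed FPKM was 39783 in original against 807 in new hair cells. All 8 were lower in new hair cells as deposited, and 7 of 8 under each other scaling, the exception being Pou4f3, a hair cell transcription factor (16.7 and 16.1 FPKM). Ocm, of highest mean level, stood at 26071 and 592 FPKM, and Otof, with the largest fall, at 1945 and 12.3 FPKM. Of 9 supporting cell markers 8 were tested, with 5 higher and 3 lower in new hair cells as deposited and all 8 higher after quantile normalization or with equal sums. The sum of the 9 was 20842 and 5335 FPKM. Most of it was S100a1 (15179 and 3617 FPKM) and Fbxo2 (5421 and 667 FPKM), both lower in new hair cells as deposited. Epyc, in a row that shares its locus, had the largest rise, at 97.0 and 725 FPKM. Summed FPKM of the 9 spiral ganglion neuron markers was 3830 and 79.8 (Prph and Thy1 at 0 in new hair cells), of the 6 Schwann cell and glia markers 999 and 29.5, of the 7 mesenchyme markers 2032 and 412, and of the 5 macrophage markers 3.74 and 73.0 (Ptprc at 0 in both groups, Aif1 at 0 in new). Single genes carry these sums and the members of a list go different ways. Nefl made up most of the neuron sum in original hair cells (3214 FPKM, and 2.70 in new). Of the 7 neuron markers above 0 in both groups, 5 were lower in new hair cells as deposited and 2 higher. The 2 were Snap25 (1.59 and 2.27 FPKM) and Nefh (0.114 and 0.262 FPKM). Prph and Thy1 were low in original hair cells as well, at 0.377 and 0.00216 FPKM. Of the glia sum in original hair cells most was Cnp (983 FPKM), while Sox10 (2.84 and 15.7 FPKM) and Mbp (2.31 and 7.35 FPKM) were higher in new hair cells. Among mesenchyme markers Otor went from 1383 to 0.226 FPKM and Lum from 89.4 to 375 FPKM, and among macrophage markers Tyrobp from 3.24 to 71.7 FPKM and Csf1r from 0.282 to 0.00365 FPKM. The part of any of these cells in the results below was not tested.

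As deposited, summed tubulin FPKM differed little between the groups and summed kinesin FPKM was 13.8-fold lower in new hair cells. The 20 tubulins summed to 1263 FPKM in original against 1119 FPKM in new hair cells, while the 38 kinesins summed to 708 and 51.2 FPKM. As a share of all FPKM in the group, which a factor applied to a whole group leaves unchanged, tubulins made up 0.0583% in original against 0.458% in new hair cells, and kinesins 0.0327% and 0.0210%. Over the same groups the summed hair cell markers were 49.3-fold lower and the summed spiral ganglion neuron markers 48.0-fold lower in new hair cells. The neuron sum was mostly Nefl in original hair cells. The part of these cells in the tubulin and kinesin sums was not tested. In bulk samples, fewer cells of a type and less RNA per cell cannot be told apart.

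Of the 58 members, 27 reached at least 1 FPKM in a group and were above 0 in both, and these are called tested (12 tubulins and 15 kinesins). A further 17 were above 0 but under 1 FPKM in both groups, 7 were listed at 0 in 1 group, and 7 at 0 in both. On the log2(FPKM + 1) scale, which understates the change of low genes, 4 of the 27 had a level at least 2-fold above that of original hair cells and 12 a level as far below it, where all tested genes gave 19.9% and 34.9%. With trimmed-mean scaling the split was 6 higher and 11 lower, against 25.4% and 31.4% of all tested genes. With equal sums it was 19 higher and 7 lower, against 69.6% and 15.0% of all tested genes, and after quantile normalization 8 and 8, against 31.9% and 26.1%. The authors' deposited table gave an unadjusted p under 0.05 for 3 tested members (Kif3a, Kif13a and Tubd1), all lower in new hair cells, where 8.83% of all tested genes did so in that direction and 0.554% in the other. No member, and none of the 9026 tested genes, passed 0.05 once the p-values from the authors' deposited table had been corrected over all tested genes (Benjamini-Hochberg), and the lowest corrected p was 0.526.

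**Figure D1:**
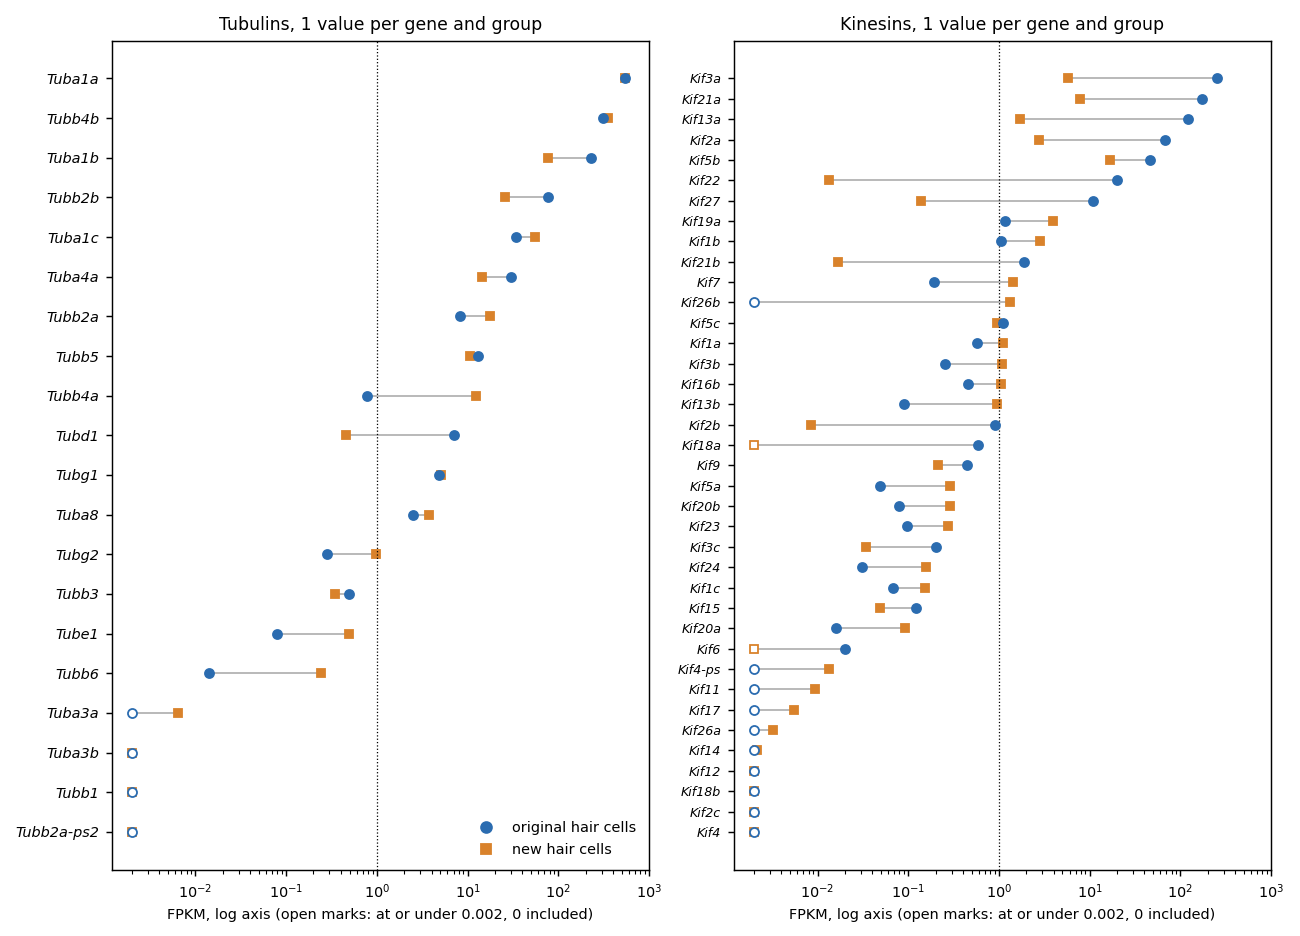
FPKM of each tubulin (left) and kinesin (right) in original (circles) and new hair cells (squares) on a log axis, 1 value per gene and group; open marks lie at or under 0.002 FPKM and the dotted line marks 1 FPKM. The most abundant tubulins, Tuba1a and Tubb4b, have nearly coinciding marks, while Kif3a, Kif21a, Kif13a and Kif2a lie far lower in new hair cells.

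Alpha-tubulin was mainly Tuba1a in both groups. Tuba1a (mm10, chr15:98949847-98953501), the isotype best known from young neurons, stood at 543 FPKM in original against 537 FPKM in new hair cells. It was higher than 97.5% of all rows in original and 99.7% in new hair cells. Tuba1a had a log2 ratio of -0.01 as deposited, 0.33 with trimmed-mean scaling, 3.25 after quantile normalization and 3.13 with equal sums. Tuba1b (mm10, chr15:98931431-98934390), made in most cells, stood at 229 and 77.3 FPKM, 2.97-fold lower as deposited and higher after quantile normalization or with equal sums. Tuba1c stood at 33.8 FPKM in original against 54.7 FPKM in new hair cells, and was higher in new hair cells under every scaling tried. These 3 genes lie close together on chromosome 15.

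Within summed alpha-tubulin FPKM, a measure that a factor applied to a whole group leaves unchanged, Tuba1a held 64.7% in original against 78.2% in new hair cells. The share of Tuba1b was 27.4% in original against 11.2% in new hair cells. Tuba1c took the opposite course, with 4.03% and 7.96%. Tuba4a, whose product lacks the final tyrosine coded by the other main isotypes, stood at 30.2 and 14.4 FPKM and held 3.60% and 2.10%. Its row shares a locus with Stk16. Tuba8 stood at 2.50 and 3.75 FPKM. Tuba3a was listed at 0 in original against 0.00636 FPKM in new hair cells, and Tuba3b at 0 in both.

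The division of reads among Tuba1a, Tuba1b and Tuba1c is uncertain because their sequences nearly coincide. The coding sequences of Tuba1a and Tuba1b were 98.3% identical, differing at 23 of 1356 positions. Of all stretches of 50 bases in the Tuba1a transcript, 72.9% also occur in a transcript of another gene, with 73.8% for Tuba1b and 61.0% for Tuba1c. The read length and the treatment of reads that match several genes are not stated in the labels. The sum over these 3 genes was 806 FPKM in original against 669 FPKM in new hair cells.

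Beta-tubulin was mainly Tubb4b in both groups. Tubb4b (mm10, chr2:25218745-25224702), an isotype found in cilia and in many tissues, stood at 313 FPKM in original against 357 FPKM in new hair cells, 75.96% and 84.1% of summed beta-tubulin FPKM. It was higher than 96.7% of all rows in original and 99.4% in new hair cells. Tubb4b had a log2 ratio of 0.19 as deposited, 0.54 with trimmed-mean scaling, 3.51 after quantile normalization and 3.34 with equal sums. Of its 50-base stretches, 50.9% occur in another annotated transcript, most of them in the pseudogene Tubb4b-ps1, and its row shares a locus with Fam166a.

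Tubb4a (mm10, chr17:57080066-57087782), the brain-enriched isotype of the same class, showed the largest difference among tested tubulins. It stood at 0.784 FPKM in original against 12.4 FPKM in new hair cells, 15.9-fold higher, with p = 0.0781 according to the authors' deposited table, and was higher under every scaling tried. Its share of beta-tubulin FPKM was 0.190% in original against 2.93% in new hair cells. Its sequence can be told from that of Tubb4b: their coding sequences were 83.2% identical, and 0.184% of the 50-base stretches of Tubb4a occur in another gene. The last bases of both coding sequences, which code for the tail of the protein, are shown with the stop codon, from the GENCODE annotation of GRCm38. They were compared position by position without a gap, although the coding sequences are 1335 and 1338 bases long. A marked base therefore need not change the protein. These stretches of coding exon, on the minus strand at chr17:57080690-57080749 and chr2:25222308-25222367, differ at 13 of 60 bases, in capitals.
Tubb4a: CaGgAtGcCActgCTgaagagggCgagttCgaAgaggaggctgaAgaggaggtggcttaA
Tubb4b: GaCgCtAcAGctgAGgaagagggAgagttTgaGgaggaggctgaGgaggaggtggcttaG

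Tubb2a and Tubb2b, which lie close together on chromosome 13 and are the class II isotypes of the nervous system, differed in opposite directions as deposited. Tubb2b (mm10, chr13:34127008-34130354) stood at 76.4 FPKM in original against 25.9 FPKM in new hair cells, lower in new hair cells as deposited and higher after quantile normalization or with equal sums. Tubb2a (mm10, chr13:34074280-34078008) stood at 8.31 and 17.8 FPKM, higher in new hair cells under every scaling tried. The ratio of Tubb2b to Tubb2a, which scaling to equal sums does not change, was 9.19 in original against 1.45 in new hair cells. Their coding sequences were 96.5% identical, and the ends, on the minus strand of GRCm38 at chr13:34074468-34074527 and chr13:34127471-34127530, differ at 3 of 60 bases, in capitals. None of these 3 bases changes the coded residue.
Tubb2a: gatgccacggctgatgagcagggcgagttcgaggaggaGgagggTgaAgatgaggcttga
Tubb2b: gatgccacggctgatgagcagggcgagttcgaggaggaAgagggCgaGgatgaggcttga
Of the 50-base stretches, 49.6% of those of Tubb2a and 39.3% of those of Tubb2b occur in at least 1 other gene, and 712 are shared by this pair, of 1561 in Tubb2a and 2133 in Tubb2b. Their sum was 84.7 FPKM in original against 43.8 FPKM in new hair cells.

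The other beta-tubulins stood far below Tubb4b in both groups. Tubb5, the most widely made isotype, stood at 13.1 and 10.8 FPKM, lower in new hair cells as deposited but higher under the 3 other scalings. Tubb3, the class III isotype used as a marker of neurons, stood at 0.494 and 0.349 FPKM, under 1 FPKM in both groups. Tubb6 stood at 0.0140 and 0.243 FPKM, and Tubb1, the isotype of platelets, was listed at 0 in both groups, as was the pseudogene Tubb2a-ps2. Summed beta-tubulin was 412 FPKM in original against 425 FPKM in new hair cells, against 839 and 687 FPKM for alpha-tubulin, a ratio of alpha to beta of 2.03 and 1.62.

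**Figure D2:**
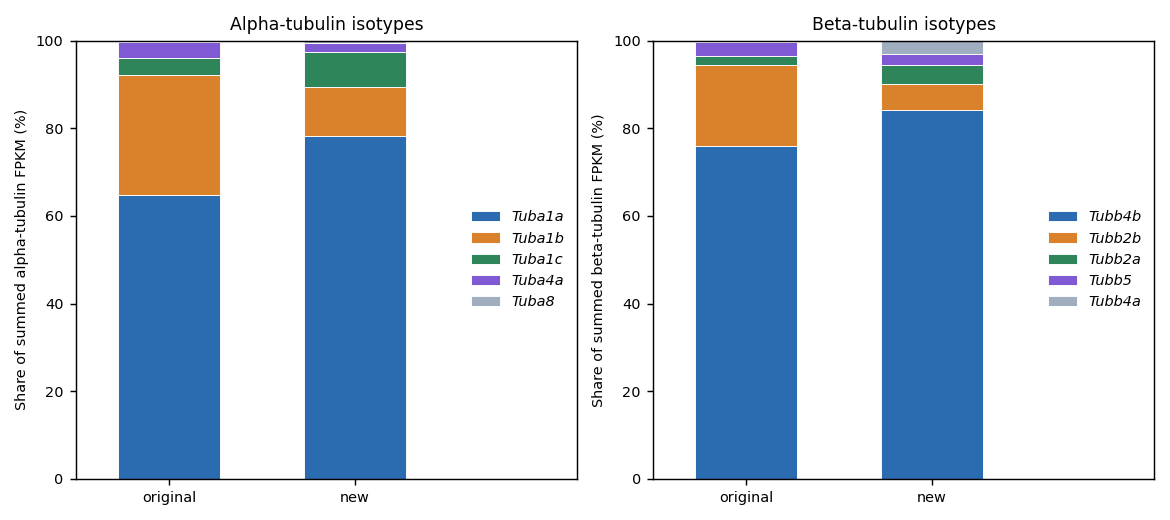
Share of each isotype in the summed FPKM of alpha-tubulin (left) and beta-tubulin (right) in original and new hair cells, as stacked bars from 0 to 100%; isotypes under 0.5% in all are left out. Tuba1a goes from 64.7% to 78.2% and Tuba1b from 27.4% to 11.2%, while Tubb2b goes from 18.5% to 6.10% and Tubb4a from 0.190% to 2.93%.

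As deposited, the main gamma-tubulin differed little between the groups, and delta-tubulin was higher in original hair cells. Tubg1, the main gamma-tubulin, stood at 4.82 FPKM in original against 5.14 FPKM in new hair cells. Its log2 ratio of new over original was 0.09 as deposited and 3.24 with equal sums. Tubg2 was under 1 FPKM in both, at 0.279 and 0.985 FPKM. Tubd1, delta-tubulin, stood at 7.10 and 0.461 FPKM, 15.4-fold lower in new hair cells, with p = 0.0458 according to the authors' deposited table, and was lower under every scaling tried. Tube1, epsilon-tubulin, which works with delta-tubulin at centrioles, stood at 0.0783 and 0.491 FPKM, both under 1 FPKM, in a row that shares its locus.

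Over the 12 tested tubulins the median log2(FPKM + 1) difference of new minus original was 0.03, beside -0.21 over all tested genes. As deposited, 2 tested tubulins were higher in new hair cells by at least 2-fold (Tubb4a and Tubb2a) and 4 lower by as much (Tuba1b, Tubb2b, Tuba4a and Tubd1), near the 19.9% and 34.9% of all tested genes. With equal sums 11 were at least 2-fold higher and none lower, against 69.6% and 15.0% of all tested genes, and after quantile normalization 6 were higher and 1 lower, against 31.9% and 26.1%.

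**Figure D3:**
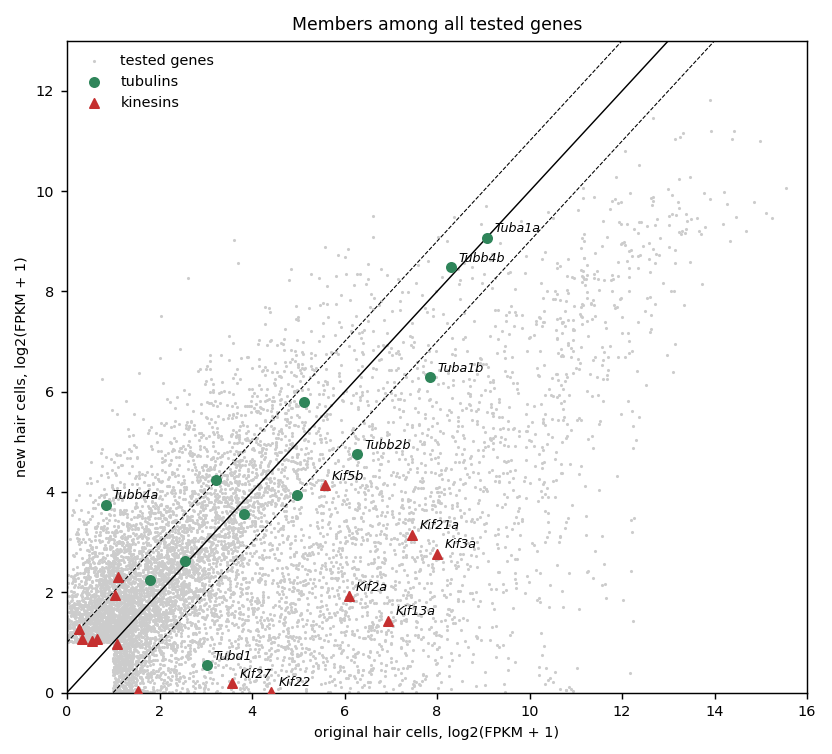
Level in new against original hair cells for all tested genes (grey), tested tubulins (green circles) and tested kinesins (red triangles), both axes in log2(FPKM + 1); the solid line marks equal levels and the dashed lines a 2-fold difference. Tuba1a and Tubb4b lie at the solid line, and Kif3a, Kif13a, Kif21a and Kif2a lie well below it, in a region that holds many other genes of high level in original hair cells.

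Among kinesins, the 5 of highest level in original hair cells were lower in new hair cells as deposited. They were Kif3a, Kif21a, Kif13a, Kif2a and Kif5b, and they held 94.3% of summed kinesin FPKM in original but 67.9% in new hair cells. They were singled out for their original level, so a lower value in the other group says little about kinesins as such. The other 33 kinesins summed to 40.6 FPKM in original against 16.4 FPKM in new hair cells.

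The most abundant kinesin of each group was a transport kinesin, Kif3a in original and Kif5b in new hair cells. Kif3a (mm10, chr11:53567369-53604246), a motor of the kinesin-2 complex that carries material along cilia and is needed for the kinocilium in mouse hair cells, stood at 256 FPKM in original against 5.81 FPKM in new hair cells. It was 44.1-fold lower, with p = 0.0121 according to the authors' deposited table, and lower under every scaling tried. Its partners in that complex stood far from it in original hair cells. Kif3b, the second motor subunit, stood at 0.252 and 1.09 FPKM, and Kifap3, the subunit that binds cargo, at 3.16 and 3.52 FPKM. The ratio of Kif3a to Kif3b was 1018 in original, where Kif3b was under 1 FPKM, against 5.33 in new hair cells. That of Kif3a to Kifap3 was 81.1 and 1.65. Kif3c, which can replace Kif3b in neurons, stood at 0.202 and 0.0344 FPKM, in a row that shares its locus. Of the 50-base stretches of Kif3a 1.29% occur in another gene, and of those of Kif3b none.

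Kif13a (mm10, chr13:46749088-46929718), a kinesin-3 motor of endosomes, stood at 122 FPKM in original against 1.70 FPKM in new hair cells. It was 71.9-fold lower, with p = 0.0238 according to the authors' deposited table, and lower under every scaling tried. Its paralog Kif13b stood at 0.0906 and 0.948 FPKM, under 1 FPKM in both groups. The ratio of Kif13a to Kif13b, 1349 in original against 1.79 in new hair cells, rests on these low Kif13b values. The coding sequences of Kif13a and Kif13b were 59.7% identical, with none of their 50-base stretches in another gene.

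Kif5b, the widely made heavy chain of kinesin-1, stood at 46.6 FPKM in original against 16.6 FPKM in new hair cells, 6.59% and 32.4% of summed kinesin FPKM. It was 2.81-fold lower as deposited and with trimmed-mean scaling still lower, but higher after quantile normalization or with equal sums. The kinesin-1 heavy chains of neurons were low, Kif5c at 1.12 and 0.954 FPKM and Kif5a at 0.0483 and 0.289 FPKM.

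The kinesin-3 motors of synaptic vesicle precursors were near 1 FPKM. Kif1a stood at 0.569 and 1.11 FPKM, and Kif1b, which also carries mitochondria, at 1.05 and 2.85 FPKM. Kif16b, a motor of early endosomes, stood at 0.452 and 1.05 FPKM. Each of these was higher in new hair cells under every scaling tried, by 1.95-fold, 2.72-fold and 2.31-fold as deposited. Kif1c stood at 0.0673 and 0.153 FPKM, in a row that shares its locus. Kif17 was listed at 0 in original hair cells and 0.00550 FPKM in new.

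Of 13 transport kinesins 8 were tested, 4 higher and 4 lower in new hair cells as deposited. Their median log2(FPKM + 1) difference was 0.15, beside -0.21 over all tested genes. At least 2-fold lower on that scale were 3, Kif3a, Kif13a and Kif5b, and none was at least 2-fold higher. All tested genes gave 34.9% lower and 19.9% higher. With a pseudocount of 0.1 in place of 1, 3 were at least 2-fold higher and 3 lower, and plain FPKM ratios were over 2 for Kif3b (4.32-fold higher), Kif1b and Kif16b. With equal sums 6 were at least 2-fold higher and 2 lower, against 69.6% and 15.0% of all tested genes. After quantile normalization none was higher and 2 were lower, against 31.9% and 26.1%.

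Mitotic kinesins were low in both groups. Of 12, 11 were under 1 FPKM in both, and Kif2c, Kif4 and Kif18b were listed at 0 in both. Kif11, which slides spindle microtubules apart, stood at 0.000358 and 0.00940 FPKM. Kif20a, whose row shares its locus, stood at 0.0162 and 0.0921 FPKM, and Kif23, a kinesin of the midbody, at 0.0977 and 0.275 FPKM. Kif22, which binds chromosome arms, was the exception, at 20.3 FPKM in original against 0.0135 FPKM in new hair cells, with p = 0.25 in the authors' deposited table. It was 1503-fold lower in new hair cells and lower under every scaling tried. Markers of dividing cells were low as well: 7 of 8 were under 1 FPKM in both groups, Plk1 and Bub1 were at 0 in both, and Birc5 stood at 1.24 and 0.0183 FPKM. The remaining mitotic kinesins, Kif2b, Kif14, Kif15, Kif18a and Kif20b, lay between 0 and 0.897 FPKM. The list of mitotic kinesins holds Kif2b and Kif2c but not Kif2a (67.2 and 2.79 FPKM), which is given with the remaining kinesins below.

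The remaining kinesins shape microtubule ends or serve cilia and signalling. Kif21a (mm10, chr15:90933275-91049951), a kinesin-4 that slows microtubule growth, stood at 175 FPKM in original against 7.88 FPKM in new hair cells. It was 22.2-fold lower, with p = 0.0793 in the authors' deposited table. Kif2a, a kinesin-13 that takes microtubule ends apart, stood at 67.2 and 2.79 FPKM, 24.1-fold lower, with p = 0.0668 in the authors' deposited table. Kif27, related to the Hedgehog regulator Kif7 and needed for motile cilia in mice, stood at 10.9 and 0.138 FPKM (p = 0.0501, the authors' deposited table). Kif21b stood at 1.88 and 0.0167 FPKM. These 4 were lower in new hair cells under every scaling tried.

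Others of the same set were higher in new hair cells under every scaling tried. Kif19a, which limits the length of motile cilia in mice, stood at 1.16 and 3.92 FPKM, and Kif7 at 0.190 and 1.42 FPKM, in a row that shares its locus. Kif26b, a kinesin without motor activity known from kidney development in mice, was listed at 0 in original hair cells and at 1.34 FPKM in new hair cells, with p = 9e-04 in the authors' deposited table. It is not among the tested genes, since 1 group is at 0. Kif6, Kif9, Kif12, Kif24 and Kif26a lay between 0 and 0.443 FPKM in both groups, as did the pseudogene Kif4-ps, at 0.0134 FPKM in new hair cells.

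**Figure D4:**
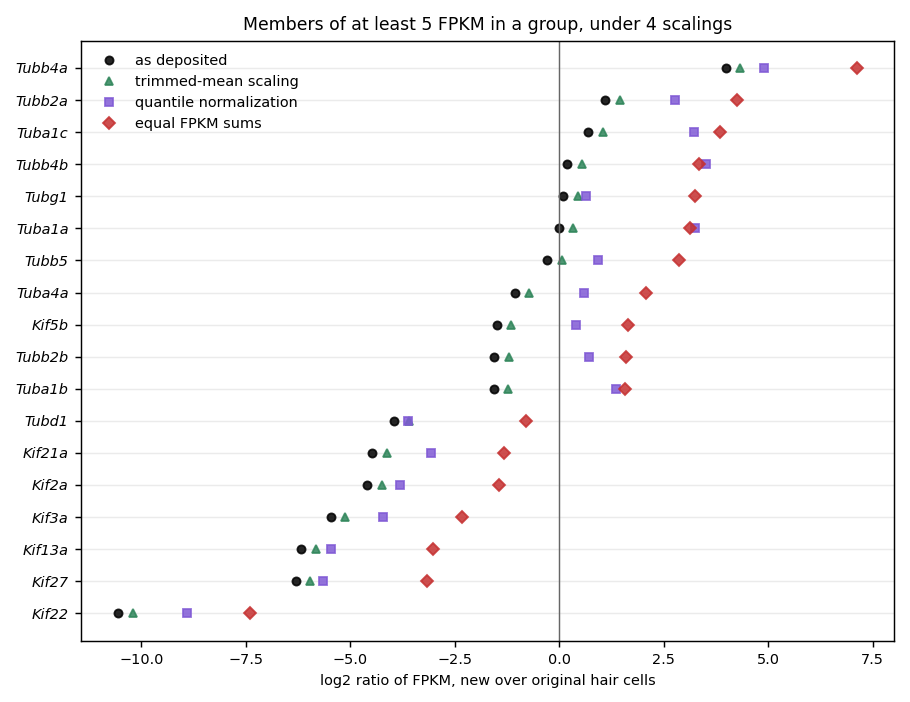
Log2 ratio of FPKM, new over original hair cells, for the 18 tested members of at least 5 FPKM in a group, as deposited (circles) and under the 3 other scalings (triangles, squares, diamonds). Tubd1, Kif21a, Kif2a, Kif3a, Kif13a, Kif27 and Kif22 lie left of 0 under all 4, Tubb4a, Tubb2a, Tuba1c, Tubb4b and Tubg1 right of 0 under all 4, and the others change side.

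Over all 15 tested kinesins the median log2(FPKM + 1) difference was -1.44 as deposited, beside -0.21 over all tested genes, and -1.10 with trimmed-mean scaling, beside 0.05. It was -0.13 after quantile normalization, beside 0.28, and turned to 1.64 with equal sums, beside 2.53. As deposited, 2 were higher in new hair cells by at least 2-fold (Kif7 and Kif19a) and 8 lower by as much, where all tested genes gave 19.9% and 34.9%. With equal sums 8 were higher and 7 lower, against 69.6% and 15.0% of all tested genes, and after quantile normalization 2 and 7, against 31.9% and 26.1%.

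Partners of kinesins and the opposing motor, cytoplasmic dynein, were set beside the members. Of 13 listed kinesin partners and C-terminal kinesins in the table, 5 were tested, 2 higher and 3 lower in new hair cells as deposited (3 and 2 with equal sums). Their median difference was -0.84 as deposited, beside -0.21 over all tested genes, and 2.05 with equal sums, beside 2.53. Klc1, a kinesin-1 light chain, stood at 80.6 FPKM in original against 6.75 FPKM in new hair cells, in a row that shares its locus. Of 27 dynein and dynactin genes 26 were tested, 20 lower and 6 higher as deposited and 7 lower and 19 higher with equal sums. Their median was -1.04 as deposited, beside -0.21 over all tested genes, and 1.73 with equal sums, beside 2.53. Dynlrb2, a dynein light chain linked to cilia, stood at 1757 and 32.7 FPKM (p = 0.0292, the authors' deposited table). Dynlrb1, its widely made counterpart, stood at 2229 and 316 FPKM, and Dctn2, a dynactin subunit, at 13.3 and 45.4 FPKM. The row of Dctn2 shares its locus. The authors' deposited table gave 3 of the 26 an unadjusted p under 0.05, all lower in new hair cells, a share near the 8.83% of all tested genes. Besides Dynlrb2 they were Dync1h1, the dynein heavy chain, at 56.5 and 0.922 FPKM, and Dync2h1, the heavy chain of the dynein of cilia, at 11.1 and 0.387 FPKM, both named after their values were seen.

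Enzymes that modify tubulin, at its tail or elsewhere, differed in both directions. The table held 28 of them, of which 13 were tested, 6 higher and 7 lower in new hair cells as deposited (11 and 2 with equal sums). Their median difference was -0.47 as deposited, beside -0.21 over all tested genes, and 2.14 with equal sums, beside 2.53. Vash2, which removes the final tyrosine of alpha-tubulin, stood at 0.395 FPKM in original against 6.10 FPKM in new hair cells. It was 15.4-fold higher, with p = 0.0427 in the authors' deposited table. Its paralog Vash1, with the same activity, stood at 5.76 and 0.145 FPKM (p = 0.0452, the authors' deposited table). Both directions held under every scaling tried. Ttll7, which adds glutamates to beta-tubulin tails, stood at 23.8 and 0.892 FPKM (p = 0.0442, the authors' deposited table). Ttll6, another tubulin glutamylase, was at 3.89 FPKM in original and listed at 0 in new hair cells. Sirt2, a deacetylase of alpha-tubulin and other proteins, had the highest mean level, at 37.1 and 9.18 FPKM, in a row that shares its locus. Vash1 and Ttll6 were named after their values were seen.

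The complex that starts microtubules with gamma-tubulin was split. Of 8 tested members of the gamma-tubulin ring complex list 4 were higher in new hair cells and 4 lower as deposited (7 and 1 with equal sums). Their median difference was -0.08 as deposited, beside -0.21 over all tested genes, and 2.54 with equal sums, beside 2.53. Tubgcp3, a core subunit, stood at 25.1 FPKM in original against 1.66 FPKM in new hair cells, and Mzt1 at 36.4 and 5.86 FPKM. Cdk5rap2, which activates the complex at the centrosome, stood at 4.55 and 5.19 FPKM.

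**Figure D5:**
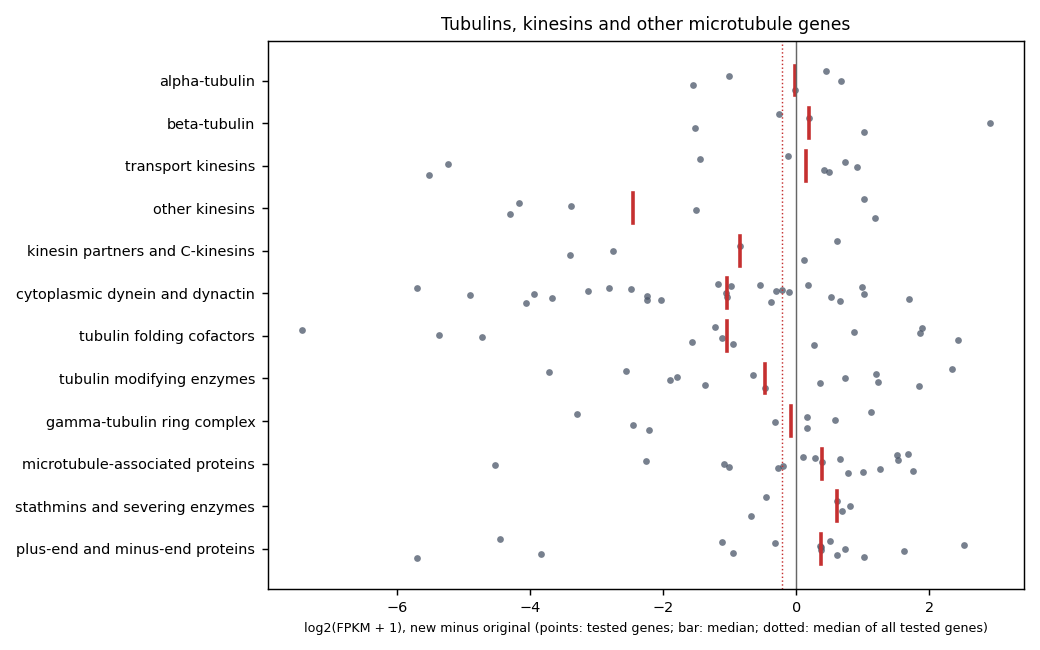
Difference in log2(FPKM + 1), new minus original, as deposited, for tested genes (points) of the tubulin and kinesin classes with at least 5 tested genes and of 8 other microtubule gene lists; red bars are medians, and the dotted line is the median of all tested genes, -0.21. The bar of other kinesins lies lowest, at -2.45, and that of stathmins and severing enzymes highest, at 0.62.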

How the data were processed

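RNA was sequenced from 4 libraries, 2 per group. The submitters' processing notes name the tools CASAVA 1.8, Trimmomatic and TopHat, and the mm10 build. Which program and test gave the table is not stated there. The authors' deposited table held 1 FPKM value per gene and group, a log2 ratio (text where a group was at 0) and an unadjusted p-value, per the file headers. The deposited log2 ratio of each member above 0 in both groups matched its FPKM columns. The deposited table had 105 rows naming more than 1 gene, 5315 sharing a locus and 3 with a log2 of 0 and p of 1 although FPKM differed (left out of the tested genes).

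Tested genes, 9026, had at least 1 FPKM in a group and were above 0 in both. Differences are log2(FPKM + 1), new minus original; folds are plain FPKM ratios. The planned limma test needs separate libraries and could not be fitted, so p-values are the authors', adjusted by the Benjamini-Hochberg method over tested genes. Trimmed-mean scaling trimmed 30% of ratios and 5% of levels at each end. Calls, adjustment, trimmed-mean scaling and quantile normalization were tested on simulated data, and scaling to equal sums was not. Printed starts are the table's plus 1. Coding sequences came from GENCODE (GRCm38).

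Named were members of at least 5 FPKM, tubulins of at least 1 FPKM, members of at least 1 FPKM listed at 0 in the other group, and per other list the largest rise and fall (at least 5 FPKM) and the highest mean; other genes named were chosen after their values were seen. Members and lists were chosen with earlier results of these data known. Software was Biopython 1.88, pandas 2.3.3, numpy 2.4.6, matplotlib 3.10.9 and scipy 1.17.1 under Python 3.11.15.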

Additional observations from a re-analysis of the deposited data

How the results depend on the processing

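No paired analysis was possible because the table has 1 value per gene and group, and for the same reason no replicate could be left out. The median log2 difference of tested tubulins, 0.03 as reported, was 0.0387 with a pseudocount of 0.1, 0.13 without a filter, 0.35 with trimmed-mean scaling, 1.11 after quantile normalization and 3.07 with equal sums, and turned to -0.0143 with a filter of 5 FPKM. For transport kinesins, 0.15 became 0.32 with a pseudocount of 0.1, 0.20 without a filter, 0.32 with trimmed-mean scaling, 0.41 after quantile normalization and 2.47 with equal sums, and turned to -5.24 with a filter of 5 FPKM, which left 3 of 8 genes (Kif3a, Kif5b and Kif13a). The value of mitotic kinesins is that of Kif22 alone, -4.39, which became -7.49, -4.22, -3.92 and -4.25 with the smaller pseudocount, trimmed-mean scaling, quantile normalization and equal sums; without a filter 8 genes gave -0.0414. Without rows that share a locus these 3 medians did not move, and Tuba1a held 67.1% in original and 79.8% in new hair cells, where Tubb4b could not be placed since its own row shares a locus. Leaving out pseudogenes moved no share. The median over all genes compared moved as well, at -0.21 as reported, -0.26 at the smaller pseudocount and -0.0415 when unfiltered. Among genes kept by the 5 FPKM filter it was -1.11. The tubulin median there was -0.0143 and the transport kinesin median -5.24. Kif13a passed that filter through its original level alone (122 and 1.70 FPKM). All 3 transport kinesins kept were among the 5 singled out above for their original level, so no contrast between the families is drawn from this filter. The unfiltered mitotic kinesin median, -0.0414, was level with its background. Depth per library is unknown, so values under 1 FPKM carry no stated precision.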

Other observations

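Of 17 tested microtubule-associated proteins 11 were higher in new hair cells and 6 lower as deposited, with a median log2(FPKM + 1) difference of 0.39, beside -0.21 over all tested genes. Map1lc3a, known for its part in autophagy, stood at 2193 FPKM in original against 93.9 FPKM in new hair cells. Eml1, a microtubule-binding protein, stood at 2.05 and 9.25 FPKM, in a row that shares its locus. Of 5 tested stathmins and severing enzymes 3 were higher and 2 lower, and Stmn1, which binds free tubulin dimers, stood at 165 and 254 FPKM. In neither list did a tested gene reach p under 0.05 in the authors' deposited table. Of all tested genes 8.83% did so lower in new hair cells and 0.554% higher.

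Proteins of microtubule ends and tubulin folding factors differed in both directions. Of 15 tested end proteins 9 were higher in new hair cells and 6 lower as deposited, with a median of 0.37, beside -0.21 over all tested genes. Mapre3, a plus-end protein of neurons and muscle, stood at 0.744 FPKM in original against 9.03 FPKM in new hair cells, and Camsap1, a minus-end protein, at 121 and 1.36 FPKM (p = 0.0254, the authors' deposited table). Tacc2 stood at 286 and 12.2 FPKM. Of 12 tested folding factors 5 were higher and 7 lower as deposited, and 9 higher and 3 lower with equal sums. Their median was -1.03 as deposited, beside -0.21 over all tested genes, and 1.90 with equal sums, beside 2.53. Tbce, a cofactor that folds alpha-tubulin, stood at 684 and 2.99 FPKM, in a row that shares its locus. Pfdn5, a prefoldin subunit, stood at 7604 and 288 FPKM, while Pfdn2 of the same complex stood at 36.6 and 203 FPKM.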
